A study of Hermetia illucens with 24 samples.

Results

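Black soldier fly larvae (*Hermetia illucens*) kept on clean chicken feed, the controls of a feeding study, were compared after 24 h and after 6 h on that feed, with 4 RNA-seq libraries at each time. These 8 libraries were chosen by their labels from 24 in all. The rest of the table holds 4 libraries of control larvae at 72 h and 4 libraries at each of 6, 24 and 72 h of larvae on feed spiked with aflatoxin B1 (AFB1), a toxin made by *Aspergillus* moulds. Larvae of both diets were 5 days old when the feeding began, and each library holds the RNA of 2 whole larvae. No AFB1 was given to the larvae of the 24 h and 6 h groups compared here, and no genotype, strain or sex is named for them. The protocol speaks of 5 pools per diet and time, of which 4 are in the table. The labels do not say whether pools came from separate rearing containers, so p-values measure the spread between these pools only. Each time is 1 group of pools, so age, hours on the feed and hour of collection cannot be told apart. In whole larvae, fewer cells of a type and less RNA per cell cannot be told apart either.

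The black soldier fly is reared on organic waste, which its larvae turn into protein and fat. Fly larvae feed and grow through a series of instars separated by moults. In *Drosophila*, many genes of the cuticle, of digestion and of the response to moulting hormone are transcribed in pulses tied to that cycle. The genes below carry NCBI LOC numbers, which the sources used here do not pair with product names, so no function is given for them.

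Across 9962 genes tested, 216 were lower at 24 h than at 6 h, 2.17% of those tested, and 29 were higher, 0.291% of those tested (edgeR quasi-likelihood F test, adjusted p under 0.05). The median log2 fold change, 24 h over 6 h, was -4.36 among the lower genes, with sizes between 1.17 and 13.1. Among the higher genes it was 2.07, with sizes between 1.07 and 5.7. Over all genes tested it was 0.02. At an unadjusted p under 0.05, signs were nearly even, with 923 genes above 0 and 942 below. DESeq2 made more calls, 388 higher and 533 lower. A single edgeR fit to all 24 libraries called 151 higher and 358 lower. With each of the 8 libraries left out in turn, lower genes numbered 102 to 260 and higher genes 5 to 88, fewest without 24 h replicate 2 and most without 24 h replicate 4. The total of 245 moved by over 1.5 times without 24 h replicate 1 (146), 2 (107) or 3 (134) and without 6 h replicate 3 (140) or 4 (161).

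**Figure D1:**
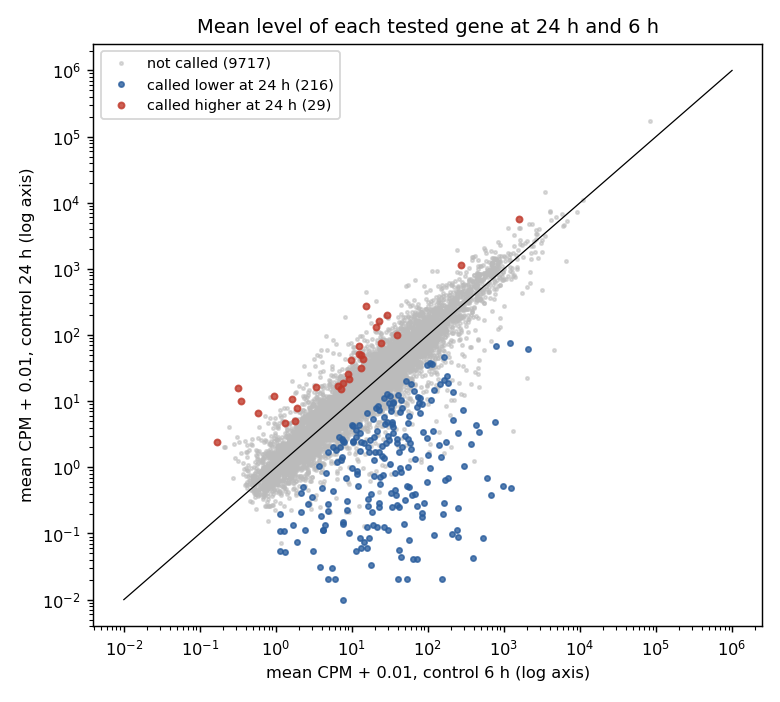
Mean level of each of the 9962 tested genes in control larvae at 24 h (vertical axis) against 6 h (horizontal axis), in CPM plus 0.01 on log axes, with the line of equal levels. The 216 lower genes reach far below the line, down to the bottom of the axis, while the 29 higher genes stay nearer to it.

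Levels are given in CPM, counts scaled to a common library size, which do not account for gene length, so levels of different genes are not compared. Replicates are listed in the order 1 to 4. Library depth was between 9053164 and 16401203 counts at 24 h and between 7774098 and 16801286 counts at 6 h. The most abundant gene, LOC119646963, took 7.12%, 7.43%, 7.92% and 36.8% of the counts in replicates 1 to 4 at 24 h. At 6 h it took 9.01%, 14.3%, 8.35% and 13.9%. Replicate 4 of 24 h therefore stood apart: its mean correlation with its own group was 0.815, against 0.885 to 0.91 for the other 24 h libraries. By mean correlation, 24 h replicate 1 was nearest to AFB1 6 h, 24 h replicate 4 to AFB1 24 h, and 6 h replicates 2 and 3 to control 72 h, while the remaining 4 libraries were nearest to their own group. The labels were taken as given, and no measurement here can check them, so pools that differ within a group and a pool under a wrong label cannot be told apart. Every value of 24 h against 6 h rests on these labels. Leaving out all of the libraries nearer to another group gave 49 lower and 23 higher genes (edgeR). This alternative was chosen after seeing the data. Leaving out those of 24 h gave 120 lower and 27 higher genes, and leaving out those of 6 h gave 99 lower and 10 higher. The 4 libraries of control 72 h were nearly identical to each other, with 2.05% to 18.7% of genes differing within a pair, against 52.1% to 77.4% at 24 h and 51.7% to 58.5% at 6 h. Whether they are separate pools or repeats of the same RNA cannot be told from the counts, so they are given as a range with no SD and do not count as 4 separate samples.

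Many of the lower genes were barely detected at 24 h. The median of the 216 gene means was 1.16 CPM at 24 h and 31.1 CPM at 6 h. At 24 h, 104 of the 216 averaged under 1 CPM, while none did at 6 h. Over all genes tested, 6.05% did so at 24 h and 4.32% at 6 h. The direction of this contrast was set by the choice of the genes. By size, 182 were at least 4-fold lower, 115 at least 16-fold and 76 at least 64-fold. The opposite picture was rare: of 4 tested genes with at least 10 CPM at 24 h and under 1 CPM at 6 h, 3 were called higher, against 69 called lower of 78 tested genes with the reverse levels. The 24 h libraries did not overlap the 6 h libraries in any of the 245 called genes. Over all 9962 genes tested, the 24 h libraries were wholly below those of 6 h in 824 genes (8.27%) and wholly above in 707 (7.1%), so such a separation was also met in many genes that were not called.

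Summed over the 216 lower genes, the 4 libraries of 24 h held 973, 732, 1100 and 1100 CPM, and those of 6 h held 18500, 15000, 28100 and 20900 CPM. The sum was lower in every 24 h library than in any 6 h library. That order was fixed by the choice of the genes, since the 2 times overlapped in none of them. Within its group, 24 h replicate 4 was among the highest, not apart from it. The 216 were all protein-coding by the reference annotation, as were 9812 of the 9962 genes tested. That class therefore does not set the lower genes apart. Of 142 long non-coding RNA genes tested, 1 was called higher (LOC119650311) and none lower, against 0.291% and 2.17% of all genes tested, too few to set the class apart.

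LOC119649649 had the lowest p of the lower genes. It was measured at 0.501, 0.616, 0.739 and 0.473 CPM at 24 h, and at 111, 104.7, 101 and 75.2 CPM at 6 h. Both groups were tight and far apart. Its log2 fold change was -7.35 (SE 0.35, adjusted p = 5.26e-05, edgeR), and it remained called with any 1 library left out, with log2 fold changes between -7.47 and -7.27.

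LOC119655575 had 1 count over the 4 libraries of 24 h, in replicate 1 (0.0418 CPM), and 10734 counts at 6 h. Its 6 h libraries held 167.5, 185.4, 133.8 and 122.7 CPM. The ratio of 6 h over 24 h was 11210, with an exact 95% interval of 2011 to 442800 that covers counting error only (adjusted p = 0.000123, edgeR). It was called with any 1 library left out.

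LOC119651404 was measured at 0.0835, 0.189, 0.0411 and 0 CPM at 24 h, against 131.8, 368.7, 223.3 and 273.4 CPM at 6 h. All 24 h libraries were below 1 CPM and all 6 h libraries above 100 CPM. Its log2 fold change was -11.32 (SE 0.78, adjusted p = 0.000266, edgeR), and it too was called with any 1 library left out.

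LOC119651934 was at 0.125, 0.0948, 0.0821 and 0 CPM at 24 h. At 6 h it was at 1330, 132.7, 549 and 138.2 CPM, highest in replicate 1. Its log2 fold change was -12.47 (SE 1.23, adjusted p = 0.000892, edgeR). LOC119659607 had 1 count at 24 h and 4396 at 6 h, and LOC119652934 had 1 count at 24 h and 3416 at 6 h. Their ratios of 6 h over 24 h were 4591 (exact 95% interval 823.5 to 181368) and 3567 (639.8 to 140945). At 6 h, LOC119659607 was at 20.4, 8.79, 96.1 and 88.7 CPM, and LOC119652934 at 83.8, 17.15, 52.2 and 7.45 CPM. The intervals rest on counts pooled over libraries and leave out this spread between pools. LOC119651934, LOC119659607 and LOC119652934 were also called with any 1 library left out. The lower gene LOC119658443 had no count at 24 h and 648 counts at 6 h. It was thus at least 225.6-fold lower at 24 h, taking a floor of 3 counts over the group. LOC119651934, LOC119652934 and LOC119658443 are among the 15 lower genes described below as uneven among the 6 h libraries.

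LOC119646327 and LOC119655552, both named for their level, were still measured in every 24 h library. LOC119646327 was at 7.72, 11.7, 59.2 and 168.8 CPM at 24 h and at 811.5, 2163, 2417 and 2813 CPM at 6 h. Its log2 fold change was -5.05 (SE 1.06, adjusted p = 0.0433, edgeR), and the call was lost without any 1 of 7 libraries, the exception being 24 h replicate 4 (log2 fold change -5.31 to -4.68 and adjusted p = 0.0589 to 0.121 where lost). LOC119655552 was at 149.6, 23.8, 63 and 68 CPM at 24 h and at 209, 1347, 1151 and 2112 CPM at 6 h. Its log2 fold change was -3.97 (SE 0.80, adjusted p = 0.0383, edgeR). That call held without 6 h replicate 1 only, the lowest 6 h library (log2 fold change -4.54 to -3.53 and adjusted p = 0.0508 to 0.12 without any other).

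**Figure D2:**
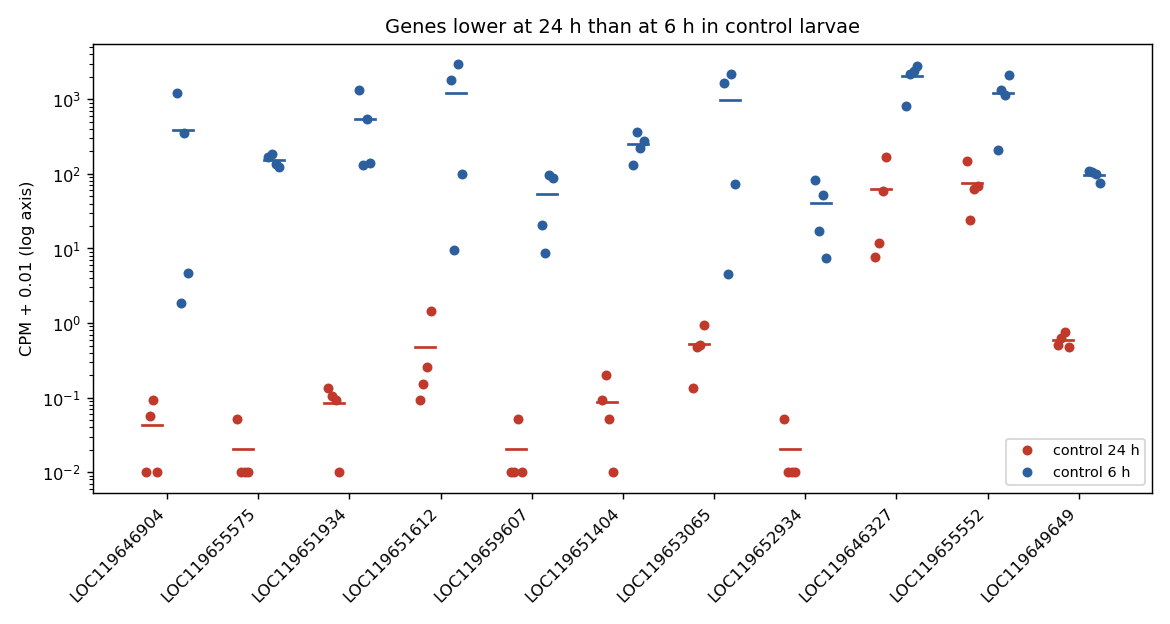
Level of the 11 named lower genes in each library, in CPM plus 0.01 on a log axis, with control 24 h left of control 6 h for each gene. Points are libraries, and within each gene every 24 h point lies below every 6 h point.

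The 6 h libraries were not alike in all lower genes. The highest 6 h library exceeded the lowest by a median of 2.6-fold over the 216 genes. That ratio was at most 3-fold in 119 genes and over 10-fold in 29. In 15 genes, replicates 1 and 3 were both at least 3-fold above replicates 2 and 4, a group chosen after its values were seen. The reverse held in 2 genes, and the other pairings of the 4 libraries gave 0, 0, 1 and 3. Among 9292 genes that were not called and averaged at least 1 CPM at 6 h, 36 showed the split of replicates 1 and 3. Replicates 1 and 4 gave 74 there, 1 and 2 gave 47, and the other pairings gave 18 to 40. The split of replicates 1 and 3 was thus the most frequent in the lower genes but not in those that were not called. Summed over the 15 genes, 24 h replicates 1 to 4 held 8.23, 11.5, 7.68 and 14.7 CPM, and 6 h replicates 1 to 4 held 7860, 230, 8990 and 467 CPM. Even the lower 6 h libraries were above all 24 h libraries, an order also fixed by the choice of the genes.

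LOC119651612 was at 0.0835, 0.142, 0.246 and 1.42 CPM at 24 h and at 1838, 9.65, 2946 and 99.8 CPM at 6 h. LOC119653065 was at 0.125, 0.474, 0.493 and 0.946 CPM at 24 h and at 1644, 4.61, 2205 and 72.9 CPM at 6 h. LOC119646904 was at 0, 0.0474, 0.0821 and 0 CPM at 24 h and at 1200, 1.82, 358.1 and 4.68 CPM at 6 h. In each, 6 h replicate 2 was the lowest of its group. Their adjusted p-values were 0.0293, 0.0291 and 0.0349 (edgeR). LOC119651612 lost the call without 6 h replicate 1 or 3 or 24 h replicate 1, 2 or 3 (log2 fold change -11.37 to -10.71 where lost, against -11.61 with all 8 libraries, adjusted p = 0.0541 to 0.121). LOC119653065 and LOC119646904 lost it without 6 h replicate 1 or 3 or any 24 h library (adjusted p = 0.0537 to 0.121 and 0.0537 to 0.137). The log2 fold change of LOC119653065 was -11.36 to -10.24 where lost, against -10.99 with all 8 libraries. With limma voom none of the 3 was called (adjusted p = 0.0803 for LOC119651612, 0.114 for LOC119653065 and 0.173 for LOC119646904).

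**Figure D3:**
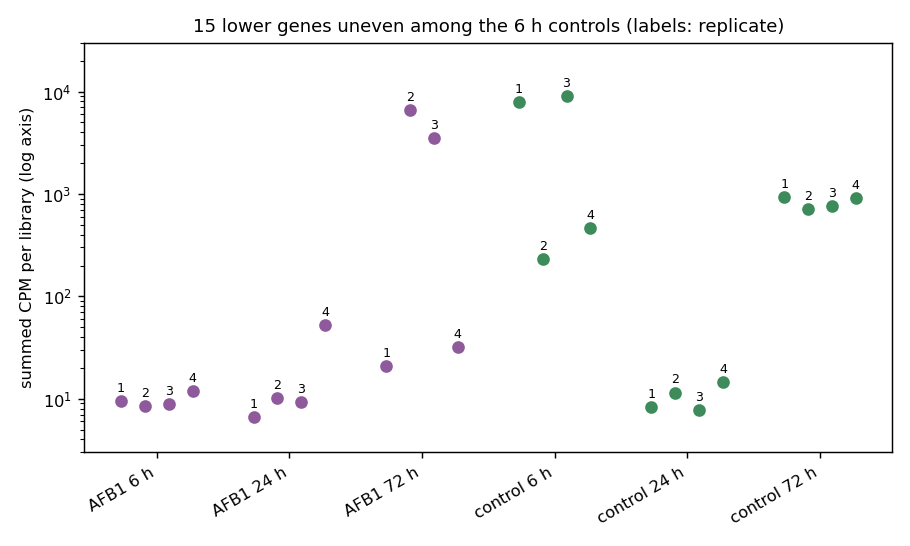
Summed level of the 15 lower genes that were uneven among the 6 h libraries, per library in CPM on a log axis, with replicate numbers. The 24 h controls lie between 7.68 and 14.7, while at 6 h control replicates 1 and 3 sit at 7860 and 8990 and replicates 2 and 4 at 230 and 467.

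Some lower genes lay next to each other. In the RefSeq gene order, 27 of the 216 (12.5%) had a directly adjacent gene that was also lower, in 10 runs, against 2.51% of all genes tested with a lower gene beside them. None of the 29 higher genes had a higher neighbour, which 0.442% of all genes tested had, so too few were called to compare. The longest run held LOC119651404, LOC119651469, LOC119651680 and LOC119652965. LOC119651469 was at 0, 0.189, 0.164 and 0 CPM at 24 h and at 112.1, 301.8, 170.9 and 243.4 CPM at 6 h. LOC119651680 was at 0.0418, 0, 0.123 and 2.52 CPM at 24 h and at 69.9, 320.4, 118.7 and 221 CPM at 6 h. In both, as in LOC119651404, 6 h replicate 1 was the lowest of its group and replicate 2 the highest. LOC119652965 ran otherwise, with 0.0418, 0.189, 0.287 and 0.473 CPM at 24 h and 18.9, 13.1, 22.2 and 11.4 CPM at 6 h.

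A second run held LOC119651315, LOC119651934 and LOC119652907. LOC119651315 was at 0.0835, 0.379, 0.246 and 0.789 CPM at 24 h and at 814.8, 485.5, 905.2 and 511.5 CPM at 6 h. LOC119652907 was at 0.334, 0.616, 0.287 and 1.26 CPM at 24 h and at 409.2, 76.7, 124.8 and 54.8 CPM at 6 h. The remaining runs of 3 genes averaged between 0.031 and 1.41 CPM at 24 h and between 3.11 and 147 CPM at 6 h. Neighbours of near-identical sequence may share reads, which cannot be judged from counts, so their values are uncertain one by one.

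The 29 higher genes changed less, and most were already measured at 6 h. Their median of gene means was 25.6 CPM at 24 h and 9.2 CPM at 6 h. Of the 29, 16 were at least 4-fold higher and 3 at least 16-fold. At 6 h, 5 of them (17.2%) averaged under 1 CPM, against 4.32% of all genes tested, a direction set by the choice of the genes. Summed over the 29, the libraries of 24 h held 6800, 7400, 6860 and 11800 CPM, and those of 6 h held 1910, 2180, 2100 and 2230 CPM. LOC119647979 alone made up 59.2% to 82.9% of the sum in 24 h libraries and 68.8% to 77.8% in 6 h libraries. The other 28 genes summed to 2610, 2850, 2800 and 2030 CPM at 24 h and to 531, 530, 656 and 496 CPM at 6 h.

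LOC119649282 had the lowest p of the higher genes. It was at 121.6, 183.7, 188.8 and 149.2 CPM at 24 h and at 19.5, 23.9, 21.9 and 25.2 CPM at 6 h. Its log2 fold change was 2.83 (SE 0.30, adjusted p = 0.00116, edgeR). LOC119650133 was at 192.2, 95.6, 94.3 and 149.7 CPM at 24 h and at 22.2, 16.1, 19.9 and 25.6 CPM at 6 h (log2 fold change 2.67, SE 0.36, adjusted p = 0.00495, edgeR). LOC119650227 was at 3.84, 7.25, 5.67 and 23.5 CPM at 24 h, highest in replicate 4, and at 0.416, 0.214, 0.474 and 0.246 CPM at 6 h (log2 fold change 4.78, SE 0.67, adjusted p = 0.00632, edgeR). These were the 3 of 11 named higher genes that were called with any 1 library left out.

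The other 8 named higher genes lost the call when certain libraries were left out. LOC119654859 had the largest fold change, with 3.84, 31.7, 20.9 and 6.62 CPM at 24 h and 0.185, 0.536, 0.514 and 0 CPM at 6 h (log2 fold change 5.70, SE 0.97, adjusted p = 0.0189, edgeR). It lost the call without 6 h replicate 1 or 24 h replicate 2 or 3 (log2 fold change 5.11 to 5.55 where lost, adjusted p = 0.0502 to 0.0611). LOC119660057 was at 238.8, 475, 336.3 and 34.7 CPM at 24 h and at 15.3, 12.8, 8.14 and 24.3 CPM at 6 h (log2 fold change 4.17, adjusted p = 0.0292, edgeR). Its 24 h replicate 4 was close to the highest 6 h library, and the call was lost without any 1 library other than that one (log2 fold change 3.76 to 4.51, adjusted p = 0.0596 to 0.0868).

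LOC119647979 was at 4187, 4546, 4064 and 9796 CPM at 24 h and at 1379, 1651, 1448 and 1736 CPM at 6 h (log2 fold change 1.87, adjusted p = 0.0351, edgeR). Without 24 h replicate 4 it was 1.47 with an adjusted p of 0.00588 (edgeR), and without any 1 other library the call was lost (log2 fold change 1.83 to 2.01, adjusted p = 0.0601 to 0.118). LOC119657252 was at 1304, 1142, 1304 and 836.3 CPM at 24 h and at 246.9, 287.9, 392.6 and 175.9 CPM at 6 h (log2 fold change 2.07, adjusted p = 0.0176, edgeR). It lost the call without 6 h replicate 1 or 4 or 24 h replicate 1, 2 or 3 (log2 fold change 1.91 to 2.07, adjusted p = 0.0549 to 0.0657).

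LOC119650311, the long non-coding RNA gene, was at 10.4, 9.48, 13.6 and 14.3 CPM at 24 h and at 0.369, 0.107, 2.29 and 0.924 CPM at 6 h (log2 fold change 3.62, adjusted p = 0.0294, edgeR). It lost the call without the same 5 libraries as LOC119657252 (log2 fold change 3.35 to 3.72, adjusted p = 0.0629 to 0.0935). LOC119658472 averaged 6.61 CPM at 24 h and 0.57 CPM at 6 h (adjusted p = 0.0346, edgeR). LOC119647613 averaged 203.8 CPM at 24 h and 29.3 CPM at 6 h (adjusted p = 0.0434, edgeR). Both lost the call without 6 h replicate 1, 3 or 4 or 24 h replicate 1, 2 or 3 (adjusted p = 0.0645 to 0.121 for LOC119658472 and 0.0747 to 0.131 for LOC119647613). LOC119654501 averaged 10.7 CPM at 24 h and 1.62 CPM at 6 h (adjusted p = 0.022, edgeR), and lost the call without 6 h replicate 3 or 4 or 24 h replicate 1 or 2 (log2 fold change 2.44 to 2.74, against 2.70 with all 8 libraries, adjusted p = 0.0607 to 0.0753). In 1 edgeR fit to all 24 libraries, LOC119654501, LOC119647979 and LOC119657252 were not called (adjusted p = 0.0631, 0.0882 and 0.275).

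**Figure D4:**
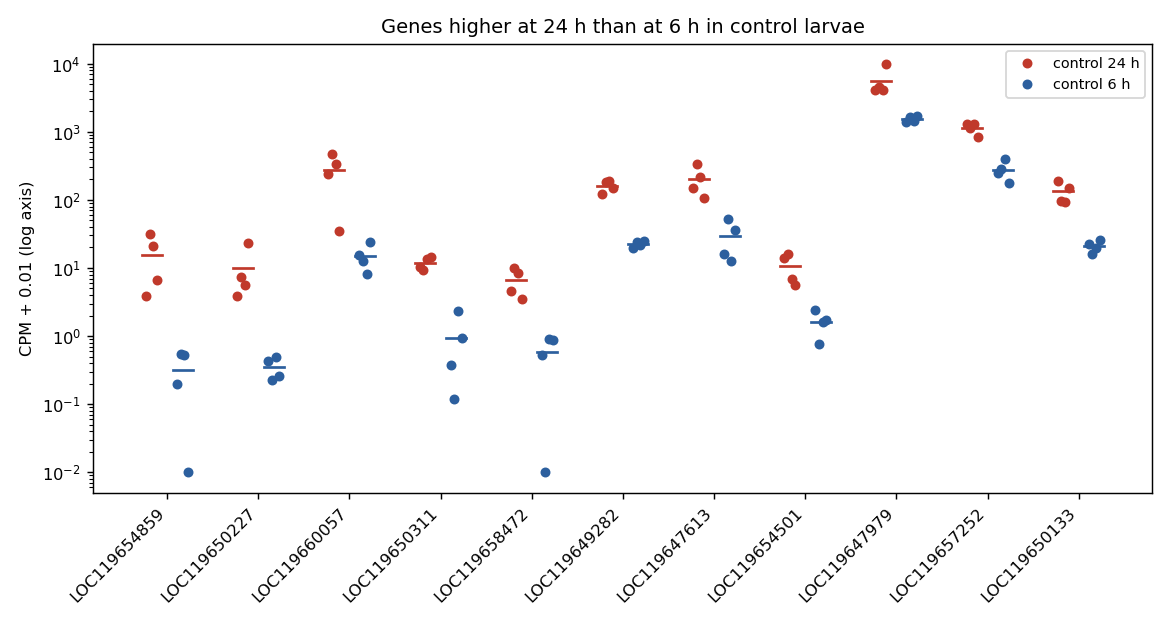
Level of the 11 named higher genes in each library, in CPM plus 0.01 on a log axis, with control 24 h left of control 6 h for each gene. Every 24 h point lies above every 6 h point of its gene, by the least for LOC119660057, where 24 h replicate 4 was at 34.7 and the highest 6 h library at 24.3.

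Genes of the mitochondrial genome and LOC119646963 were not called. The mitochondrial genes encode subunits of the respiratory chain and of ATP synthase. None of 12 tested was called, against 2.46% of all genes tested, and 1 had an unadjusted p under 0.05, against 18.7% of all genes tested. Such counts from 12 genes say nothing particular about them. They had a median log2 fold change of 0.25 and a lowest adjusted p of 0.231 (edgeR). In 7 of the 12, 24 h replicate 4 was the highest of the 8 libraries, with no share over all genes given for comparison. Their share of the counts other than those of LOC119646963 was 4.78% ± 1.11 at 24 h and 5.72% ± 1.05 at 6 h (SD, n = 4 each; exact permutation test, two-sided, p = 0.2, adjusted over 4 such measures 0.609). LOC119646963 was at 48772, 54886, 52157 and 525815 CPM at 24 h and at 58624, 119504, 55454 and 96708 CPM at 6 h. Its adjusted p was 0.511 (edgeR), and its 3 lower values at 24 h were below all of those at 6 h.

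Control larvae at 72 h were set beside both times. Of the 216 lower genes, 212 had every 72 h library above every 24 h library, and in 192 the 72 h median was at least 50% of the 6 h mean. In 116 genes all 72 h libraries lay within the range of the 6 h libraries, in 47 all were above it and in 16 all were below it. No shares over all genes tested are given for 72 h against 6 h. These counts therefore say nothing particular about the lower genes. The summed level was 26900 to 27800 CPM at 72 h. The exceptions to the 212 were LOC119646254, LOC119660828, LOC119659589 and LOC119657969. LOC119659589 was at 119.2, 106.8, 102.6 and 65.4 CPM at 6 h, at 36.1, 30.7, 33.7 and 39.3 CPM at 24 h and at 27.1 to 45.8 CPM at 72 h. Of the 29 higher genes, 27 had every 72 h library below every 24 h library, the exceptions being LOC119655936 and LOC119654297. Their summed level was 3240 to 3270 CPM at 72 h. No test was made with the 72 h libraries, which were nearly identical.

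Among named genes, LOC119649649 was at 112.9 to 122.3 CPM at 72 h, LOC119655575 at 150.2 to 175.2 CPM and LOC119651404 at 402.1 to 424.3 CPM, the last above all 6 h libraries. LOC119649282 was at 11 to 13.9 CPM, below all 6 h libraries, and LOC119650133 at 25.4 to 32.5 CPM. Over all 9962 genes tested, every 72 h library was above every 24 h library in 15.8% and below in 11.9%. The called genes were chosen by the same 24 h libraries that enter their comparison with 72 h, so the direction of that comparison is not independent of the choice.

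AFB1-fed larvae were measured at the same hours. LOC119646963 took 10.25%, 7.78%, 33.7% and 23.9% of the counts in AFB1 6 h replicates 1 to 4. In AFB1 24 h replicates it took 27.4%, 42.8%, 74.2% and 81.1%. Other genes thus held only 2097793 and 1711314 counts in AFB1 24 h replicates 3 and 4. This limits the AFB1 24 h levels and every test below that uses them. The summed level of the 216 lower genes was 792, 860, 522 and 770 CPM in AFB1 6 h libraries and 570, 652, 721 and 1690 CPM in AFB1 24 h libraries. All 8 sums were well below those of the control 6 h libraries. In AFB1 72 h libraries it was 1470, 19800, 11200 and 1780 CPM. LOC119649649 was at 0.1, 0, 0.477 and 0.0837 CPM in AFB1 6 h libraries, and at 0, 0.253, 0 and 1.53 CPM in AFB1 24 h libraries. In AFB1 72 h libraries it was at 0.32, 305, 201.1 and 0.804 CPM. Replicates 2 and 3 of AFB1 72 h were thus the high ones, both for this gene and for the sum. The summed level of the 29 higher genes was 7570, 7570, 7760 and 2950 CPM in AFB1 6 h libraries, 6630, 4800, 2830 and 992 CPM in AFB1 24 h libraries and 732, 273, 598 and 665 CPM in AFB1 72 h libraries. LOC119647979 weighs on these sums too, with 2250 to 6217 CPM in AFB1 6 h libraries and 6.85 to 94.4 CPM in AFB1 72 h libraries. By the median of the 29 gene means, AFB1 72 h was at 9.55 CPM and control 6 h at 9.2 CPM. In 3 of the 29 genes every AFB1 72 h library was below every control 6 h library. No share over all genes is given for comparison, so that count says nothing particular about them.

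**Figure D5:**
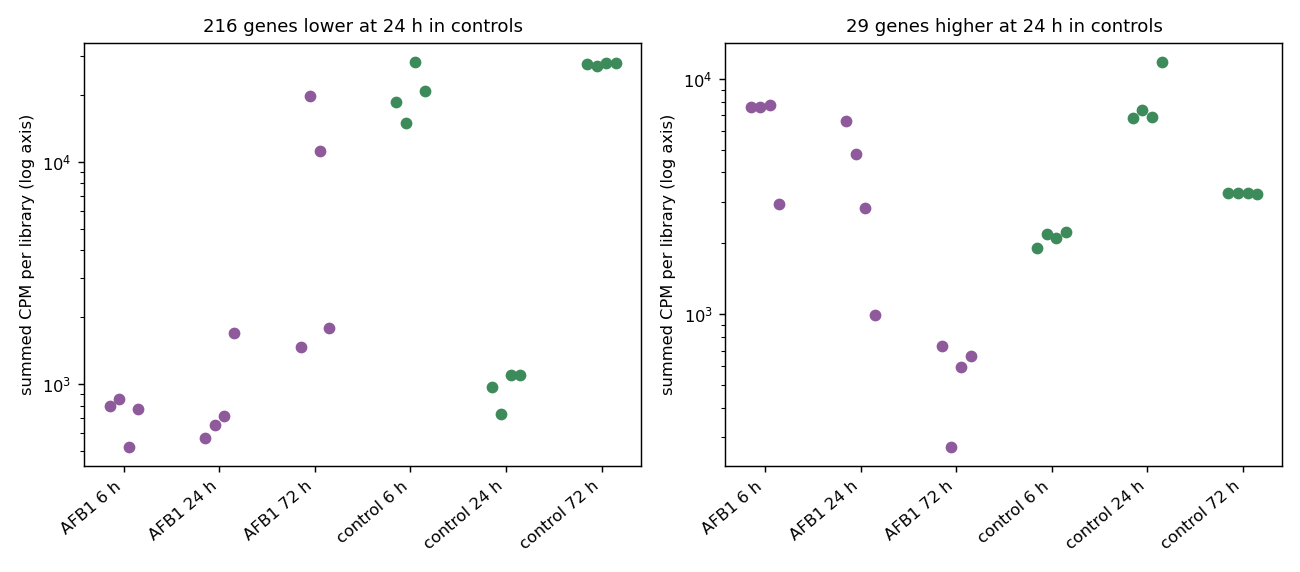
Summed level of the 216 lower genes and of the 29 higher genes in each of the 24 libraries, in CPM on log axes, by diet and time. In the lower genes, control 24 h libraries (732 to 1100) lie with those of AFB1 at 6 h (522 to 860) and 24 h (570 to 1690), and control 6 h libraries (15000 to 28100) with control 72 h (26900 to 27800). LOC119647979 makes up most of the sum of the higher genes in control libraries.

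Between 24 h and 6 h, no gene of 8761 tested was called in AFB1-fed larvae (edgeR), with 1583 genes at an unadjusted p under 0.05, and DESeq2 called 161. Without AFB1 6 h replicate 3, edgeR called 1475 genes. Only 72 of the 216 lower genes had enough counts to be tested there, of which 43 had a log2 fold change below 0 and 29 above, with a median of -0.19, against -0.09 over all genes tested. Of the 29 higher genes, 24 were tested, with 6 above 0, 18 below and a median of -0.35. Over all genes tested in AFB1-fed larvae, 45.6% were above 0.

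The difference itself, the 24 h over 6 h change of AFB1-fed minus that of control larvae, was tested in 9956 genes. At an adjusted p under 0.05 (edgeR), it was called above 0 in 41 genes (0.412% of those tested) and below 0 in 3 (0.0301%). Of 213 lower genes tested, 40 had a called difference above 0, and of 29 higher genes, 3 had a called difference below 0. With 1 library left out, 23 to 102 genes were called, fewest without AFB1 24 h replicate 4 and most without control 24 h replicate 4. The control libraries enter both this difference and the choice of these genes, so the direction is not independent of it. The difference of LOC119649649 was 8.96 on the log2 scale (SE 1.48, adjusted p = 0.00754, edgeR), and that of LOC119649282 was -3.59 (SE 0.63, adjusted p = 0.0122, edgeR). LOC119649282 was at 144.8, 98.6, 74 and 39.2 CPM in AFB1 24 h libraries and at 123.4, 156.5, 283.3 and 65.4 CPM in AFB1 6 h libraries. All 8 were above the highest control 6 h library, at 25.2 CPM.

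At the threshold, the last gene called was LOC119652237, with 2.43 CPM at 24 h and 10.3 CPM at 6 h (adjusted p = 0.0496, edgeR). The first not called was LOC119659379, with 0.819 CPM at 24 h and 17.7 CPM at 6 h (adjusted p = 0.0504, edgeR).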

How the data were processed

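Reads of 150 bp were sequenced from both ends, per the labels. The deposited table holds the authors' raw read counts per gene, with a column for each library. The submitters' processing notes name STAR. No counting tool, tool version, genome build or strand setting is given in the sources used here, so overlapping, antisense and near-identical genes are uncertain. Of 15197 lines, 1 was empty and 9 named no gene (0.0241% to 0.0348% of the counts), which were left out. All 15187 gene names matched RefSeq's table, used for names, gene class and gene order only.

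The members and lists were chosen with earlier results of these data known. edgeR 4.0.16 in R 4.3.3 was used with filterByExpr (9962 genes), TMM scaling and a robust quasi-likelihood F test on the 8 libraries compared, so that the nearly identical 72 h controls would not lower the spread. P-values were two-sided and adjusted by Benjamini and Hochberg over all genes tested, with calls under 0.05. The common biological coefficient of variation was 0.529, with 6 residual degrees of freedom. Printed CPM use TMM-scaled library sizes over all 24 libraries, so the CPM of a library need not sum to the usual total. Single values were tested by exact permutation over the 70 divisions of the 8 libraries (smallest p possible 0.0286). Intervals and the floor of 3 counts cover counting error only. Library differences within pairs were tested in genes with at least 20 counts.

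Named genes were, among called genes with a mean log2 CPM of at least 1, the 8 of largest fold change, the 4 of highest level and the 2 of lowest p per direction, with the mitochondrial genes and LOC119646963. Planned lists by product name (cuticle, digestion, detoxification, immunity and others) were not formed, since product names were not used here. Alternatives were DESeq2 1.42.0 (size factors, Wald test), limma 3.58.1 (voom), all 24 libraries, no filter, omission of LOC119646963, a replicate block, each library left out, and, chosen after seeing the data, omission of libraries nearer to another group. The scripts were tested on simulated data.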

Additional observations from a re-analysis of the deposited data

Results flagged for a closer look

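In 11 of 63 groups of 4 values checked, 1 library lay far from the other 3 of its group, and in each case it was control 24 h replicate 4. Chance flags about 1 in 20 such groups if values are normally distributed, which was not checked for CPM. The flags share a library, and LOC119646963 enters both by its CPM and by its share of the counts. In that library LOC119646963 was at 525815 CPM and took 36.82% of the counts. LOC119647979 was at 9796 CPM there. Among mitochondrial genes the library held 2370 CPM of COX1, 9627 of ATP8, 62.77 of ATP6, 2922 of ND5, 10749 of ND4, 2105 of ND4L, 2291 of CYTB and 12640 of ND1. The lower genes did not single it out, with a summed 1100 CPM there against 732 to 1100 in the other 24 h libraries. What sets the library apart was not tested.

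For 7 named genes the 24 h over 6 h change differed between AFB1-fed and control larvae (edgeR interaction test, AFB1-fed minus control, log2 scale). It was 15.39 for LOC119655575 (adjusted p = 0.00535), 12.45 for LOC119651934 (adjusted p = 0.00754), 11.59 for LOC119653065 (adjusted p = 0.0122) and 8.96 for LOC119649649 (adjusted p = 0.00754). It was -8.86 for LOC119654859 (adjusted p = 0.0455), -6.05 for LOC119650227 (adjusted p = 0.019) and -3.59 for LOC119649282 (adjusted p = 0.0122). LOC119654859 was at 0.402, 9.07, 0.2385 and 0.1675 CPM in AFB1 6 h libraries and had 6 counts over those of AFB1 24 h. Its AFB1 6 h level thus rests mainly on replicate 2, a library nearest to control 24 h by mean correlation. The lower genes among them were already near 0 in AFB1 6 h libraries, where LOC119655575 averaged 0.00886 CPM and LOC119651934 averaged 0.13 CPM. LOC119655575 had 1 count over the AFB1 6 h libraries and 2 over those of AFB1 24 h. A fitted difference of such genes depends on the prior count and is no bound. All 7 genes were named for their change in the same control libraries, so the direction of the difference is not independent of that choice.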

How the results depend on the processing

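Of the 22 named called genes, 3 (LOC119649649, LOC119651404 and LOC119655575) were called under all alternative runs, and the rest lost the call in some. None changed direction. The 24 h and 6 h libraries did not overlap in any of these genes, so that outcome was largely fixed by their choice. The control comparison (245 genes, 29 higher and 216 lower) gave 921 with DESeq2 (388 higher, 533 lower), holding all 245, and 509 with all 24 libraries in 1 fit (151 higher, 358 lower), holding 223. Higher genes numbered 47 with the 72 h controls summed, 44 with limma voom and 16 with the replicate block, which gave 169 in all and shared 148. Same-numbered libraries of the 2 times correlated at 0.358, -0.000956, 0.446 and -0.18 in their deviations, so the numbers were not taken to pair them. With 1 library left out, calls numbered 107 to 348, lower genes 102 to 260 and higher genes 5 to 88. The fewest came without 24 h replicate 2 and the most without 24 h replicate 4. The total moved over 1.5 times without 24 h replicate 1 (146), 2 (107) or 3 (134) and without 6 h replicate 3 (140) or 4 (161). Without the libraries nearer to another group there were 147 calls (120 lower) leaving out those of 24 h, 109 (99 lower, 10 higher) leaving out those of 6 h, and 72 (49 lower) leaving out all 4. DESeq2's size factors in edgeR, no filter and omission of LOC119646963 gave 242 to 248 calls.

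The difference between diets (44 genes called, 41 above 0 and 3 below) gave 517 calls with DESeq2 (284 and 233) and 131 with all 24 libraries (71 and 60). With 1 library left out it gave 23 to 102 (22 to 81 above, 1 to 21 below), fewest without AFB1 24 h replicate 4 and most without control 24 h replicate 4. With the replicate block it gave 44. AFB1-fed larvae, with 0 calls, gave 161 with DESeq2 (43 higher, 118 lower), 411 with all 24 libraries (129 and 282), 300 with the replicate block (157 and 143), and 0 to 1475 with 1 library left out (0 to 709 higher, 0 to 766 lower). The 1475 came without AFB1 6 h replicate 3. The cause was not tested. Genes of few counts limit the fold changes: 42 of the 216 lower genes had at most 10 counts over the 24 h libraries.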
